A study of Mus musculus with 6 samples.

Results

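The genes described here encode the enzymes of glycolysis, the glucose and lactate transporters at either end of the pathway, and the enzymes that pass pyruvate to lactate or to the mitochondria. They were chosen by name, with earlier results of these data known. A list of 36 gene names, in which Pkm and Pkm2 stand for 1 gene, was matched to those printed on the array. Control spots were left out. All 35 genes had a probe. They were covered by 56 probes, of 39429 gene probes and 30458 gene names in all, and 54 of these probes, with at least 1 for every gene, passed the filter on dim signals. The arrays compared mouse embryonic stem (ES) cells lacking the zinc finger gene Zscan5b (3 knockout replicates) with wild type ES cells (3 wild type replicates), which the submitters call biological replicates. Cells of both genotypes grew with leukemia inhibitory factor, which keeps them undifferentiated, over feeder mouse embryonic fibroblasts that mitomycin C had stopped from dividing, so the total RNA may hold feeder RNA in both groups. Which stretch of Zscan5b was removed, how, and in how many clones is not given in the labels.

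Glycolysis breaks glucose down to pyruvate in the cytosol and yields a small amount of ATP without oxygen. Lactate dehydrogenase reduces pyruvate to lactate, which leaves through monocarboxylate transporters, while the pyruvate dehydrogenase complex turns pyruvate into acetyl-CoA inside mitochondria and is switched off by its own kinases. Flux is set mainly at glucose entry, hexokinase, phosphofructokinase and pyruvate kinase, and many genes of the pathway are known targets of the hypoxia-inducible factors, which bind the DNA letters ACGTG or GCGTG. Mouse ES cells are known to use both glycolysis and respiration.

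Every value is the log2 of a probe's processed signal over the 75th percentile of its array, so 0 marks that percentile; levels of different probes cannot be set against each other. A log2 fold change is the knockout mean minus the wild type mean, given ± SE with n = 3 per group, and a gene is called when limma's p, Benjamini-Hochberg adjusted over all 26647 tested probes, is below 0.05. A gene with several probes is represented by the brightest. Between 25371 and 27754 probes per array were well above background, the signal at the 75th percentile was 852 to 1028, and no probe of the pathway was saturated. The 3 knockout arrays lay on 1 slide with 1 scan and the 3 wild type arrays on another, so slide, scan and genotype cannot be told apart. The Zscan5b probe read -4.47, -5.17 and -5.13 in the knockout, against -3.66, -4.03 and -3.12 in wild type. All knockout values were lower, but the log2 fold change of -1.32 ± 0.29 was not called (adjusted p 0.107), and whether this probe lies in the deleted stretch is not given.

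The cell type label was checked against markers. All 12 ES cell markers were detected in both groups and 0 were called. Their mean, centred over the 6 arrays, was 0.05, 0.11 and 0.02 in the knockout, against 0.04, 0.02 and -0.24 in wild type. Single markers differed in direction: every knockout array lay above wild type for Nanog (log2 fold change 0.66) and Klf4 (0.56) and below for Pou5f1 (-0.47). The groups overlapped in the other 9. Over all genes, every knockout array lay above wild type in 12.5% and below in 16.4%, so 2 and 1 of the 12 markers do not set this list apart. Of 37 feeder fibroblast markers 36 were tested and 34 had a negative fold change, with a median of -0.77, and 0 were called. Their summed level spanned 7.70 to 8.02 in the knockout and 7.79 to 8.65 in wild type (log2). The centred mean of the feeder list was -0.61, -0.15 and -0.47 in the knockout, against -0.59, 1.00 and 0.82 in wild type, so wild type replicate 1 lay with the knockout arrays and replicates 2 and 3 stood apart. Col1a1, a fibrillar collagen chain, read from 1.14 to 1.97 in the knockout and from 1.73 to 3.22 in wild type, and was well above background on all 6 arrays. The marker left out of the test was Col5a2, another collagen chain, which was well above background on 0 knockout and 2 wild type arrays. Of 7 tested primitive endoderm markers 4 were positive and 0 were called, with log2 fold changes from -1.25 to 1.58. Before adjustment, limma's p was below 0.05 in 3 that read higher and 2 that read lower. These are 42.9% and 28.6%, against 9.66% and 12.1% of all genes. The genes behind these shares were dim: Foxa2, Gata4, Sox17, Sox7 and Dab2 had mean signals of -5.27, -3.98, -4.21, -4.35 and -2.38. Foxa2, which had the highest fold change, was well above background on only 2 wild type arrays. Dab2 lacked a value in wild type replicate 1. In such bulk RNA, fewer cells of a type and less RNA per cell cannot be told apart.

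Most genes of the pathway read higher in the knockout, by small amounts, and 1 of them passed the test. Pfkfb3 rose, 0 genes fell and 34 were not called (over all 20597 genes tested, 0.112% were called higher and 0.393% lower). The log2 fold change was positive in 27 of the 35 genes and negative in 8, with a median of 0.29, whereas 46.5% of all genes were positive and their median was -0.03. Before adjustment, limma's p was below 0.05 in 13 genes that read higher and 2 that read lower, or 37.1% and 5.71% of the 35, against 9.66% and 12.1% of all genes. In 17 genes every knockout array lay above every wild type array and in 3 every knockout array lay below (12.5% and 16.4% of all genes), while the groups overlapped in the other 15. Counted by probe, 44 of the 54 were positive with a median of 0.38, and p before adjustment was below 0.05 in 24 higher and 2 lower (10.6% and 11.3% of all tested probes). All knockout arrays lay above all wild type arrays at 28 of these probes and below at 4 (13.6% and 15.4% of all tested probes), and 1 probe was called higher (0.124%) and 0 lower (0.342%). Some genes have several probes, which can read the same transcript, so the counts by probe are not independent of those by gene. The 8 negative genes were Hk1, Pfkm, Pfkfb4, Eno3, the lactate transporter gene Slc16a1 and the pyruvate dehydrogenase genes Dlat, Pdha1 and Pdhb.

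**Figure D1:**
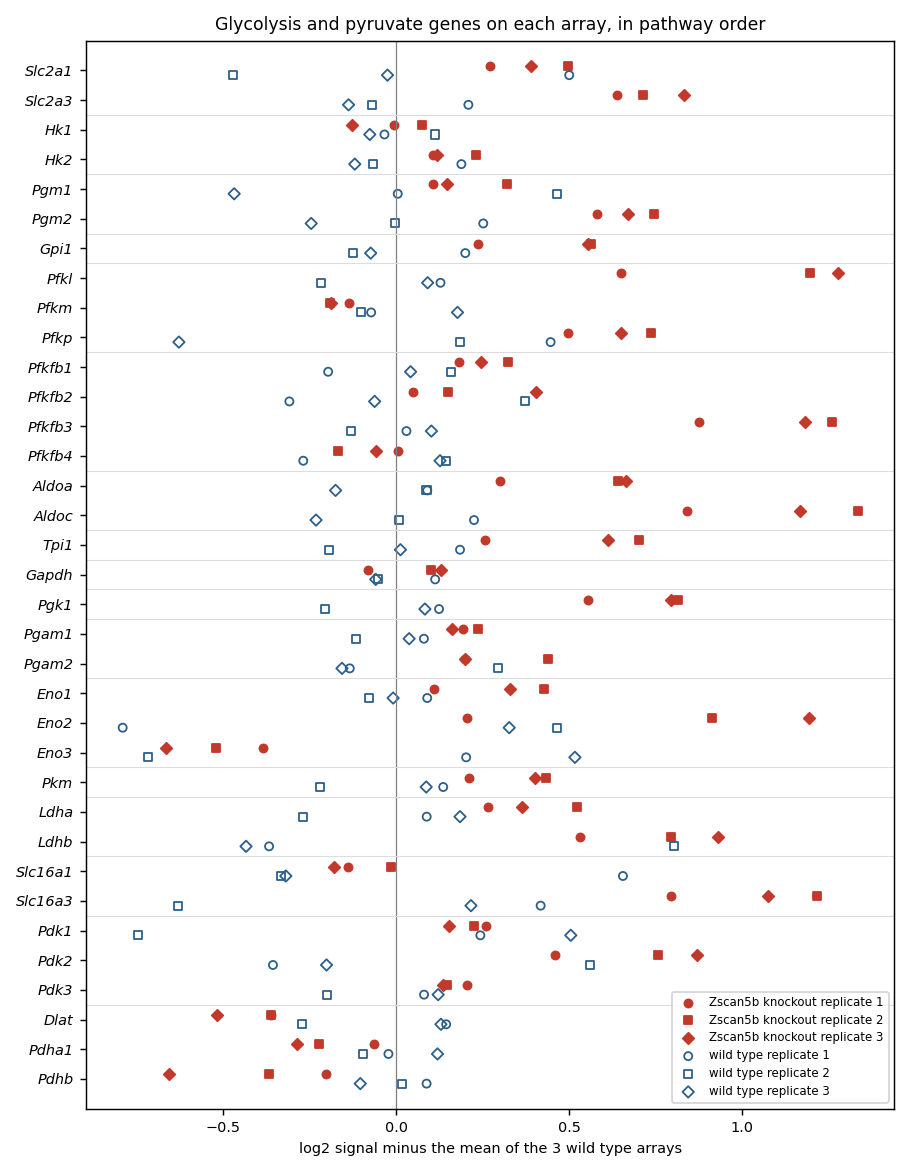
Log2 signal of each of the 35 genes (representative probe, in pathway order from top to bottom) on each of the 6 arrays, minus the mean of the 3 wild type arrays. Filled red symbols are knockout replicates, open blue symbols wild type replicates, and most red symbols lie to the right of 0, with Dlat, Pdhb and Pfkm lying wholly to the left of their wild type arrays.

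Positive fold changes were the more common ones among both bright and dim members. Of 26 members with a mean signal above the 75th percentile 21 were positive, with a median of 0.37, whereas 35.8% of all genes in that range were positive and their median was -0.08. Of the 9 members below it 6 were positive, with a median of 0.20, against 53.9% and 0.04 for all genes there. Aldoc, Pfkfb3, Pfkl and Slc16a3 lay highest, with fold changes above those of 98.8%, 98.8%, 98.6% and 98.5% of all genes tested. At the other end, Eno3 lay above 8.62% of all genes.

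**Figure D2:**
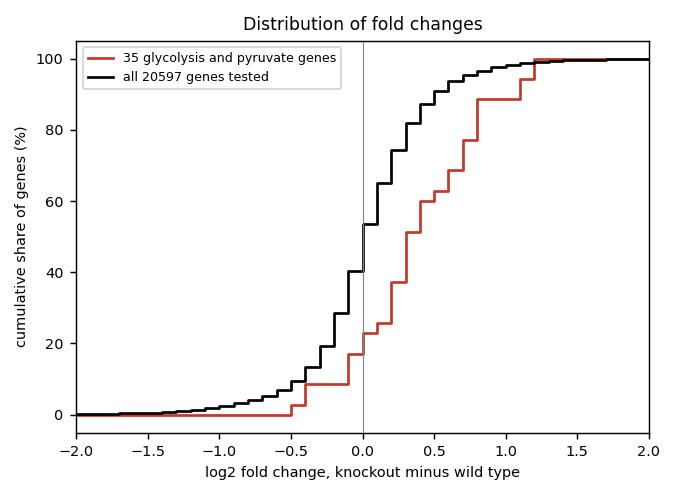
Cumulative share of genes (vertical axis, percent) at or below each log2 fold change, knockout minus wild type (horizontal axis, in steps of 0.1), for the 35 pathway genes in red and all 20597 tested genes in black. The red line lies to the right of the black one over most of the range, and 77.1% of the pathway genes against 46.5% of all genes lie above 0.

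Averaged over the 35 genes after centring each gene, the arrays read 0.06, 0.25 and 0.20 in the knockout, against -0.10, -0.22 and -0.19 in wild type, so the groups did not overlap. Knockout replicate 2 held the highest of the 6 values in 15 genes and replicate 3 in 8, and wild type replicate 2 held the lowest value in 15 genes and replicate 3 in 9. Knockout replicate 1 was the lowest knockout array in 23 genes. These ranks were not counted over all genes, so they do not set the members apart from other genes. The spread within the wild type group was the larger one in 24 of 35 genes, with a median SD of 0.12 in the knockout and 0.19 in wild type. This was not particular to the pathway: over all genes it was the larger one in 14976 of 20597, with median SDs of 0.13 and 0.21.

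Feeder markers separated the wild type arrays, so each wild type array was also set against the knockout by itself. All 3 knockout arrays lay above wild type replicate 1, whose feeder signal was at the knockout level, in 24 of the 35 genes (68.6%, against 33.6% of all genes). They lay above wild type replicate 2 in 22 genes (62.9%, against 29.8%) and above wild type replicate 3 in 25 (71.4%, against 39.0%). The median difference of the knockout mean from each of these arrays was 0.21, 0.31 and 0.30, in replicate order. The part of feeder RNA in these differences was not tested. Without wild type replicate 1 limma called 3 genes higher (Slc2a3, Pfkfb3 and Aldoc), where 0.762% of all probes were called higher and 1.64% lower. Without wild type replicate 2 it called 6 higher (Ldhb, Pfkfb3, Pdk2, Aldoc, Pgk1 and Slc2a3) and 2 lower (Eno3 and Dlat). With any other array left out it called 0 in either direction. The share of all probes called without wild type replicate 2 was 5.29% higher and 4.31% lower.

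**Figure D3:**
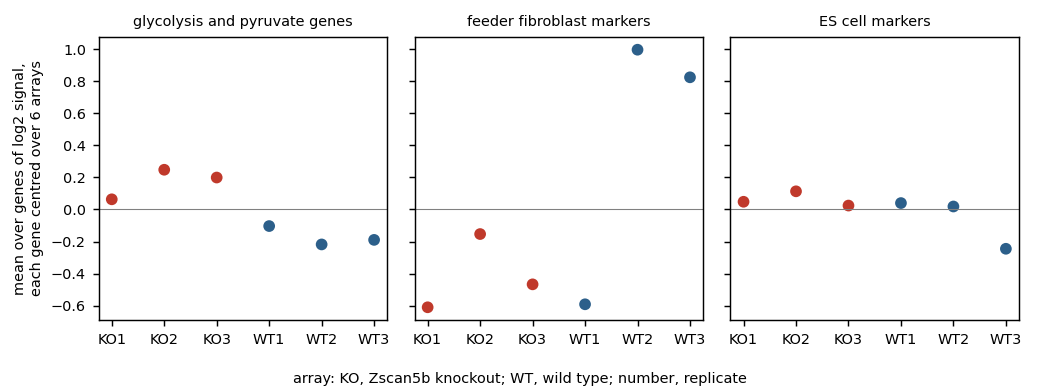
Mean over genes of the log2 signal, each gene centred over the 6 arrays (vertical axis), on each knockout (KO, red) and wild type (WT, blue) array, for the 35 pathway genes, 36 feeder fibroblast markers and 12 ES cell markers. The pathway genes separate the genotypes by less than 0.5, whereas the feeder markers set wild type replicates 2 and 3 apart from the other 4 arrays.

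At glucose entry, the neuronal-type transporter gene Slc2a3 was higher in all knockout arrays. It read 5.59, 5.67 and 5.78 in the knockout, against 5.16, 4.88 and 4.81 in wild type. The groups did not overlap, and the log2 fold change was 0.73 ± 0.13, not called at an adjusted p of 0.0744. Slc2a1, the widespread basal glucose transporter, read 5.36, 5.58 and 5.48 in the knockout, against 5.58, 4.61 and 5.06 in wild type, where replicate 1 was level with the knockout. Its log2 fold change of 0.39 ± 0.25 was not called (0.381).

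Hexokinase, which traps glucose in the cell as glucose phosphate, gave values that depended on the probe. Hk2, the isozyme of muscle and many dividing cells, had a log2 fold change of 0.15 ± 0.12 with overlapping groups. The representative Hk1 probe read 7.38, 7.46 and 7.26 in the knockout, against 7.35, 7.50 and 7.31 in wild type, with no separation (-0.02 ± 0.11). The files place this probe on chromosome 5, whereas RefSeq has Hk1 on chromosome 10, so which sequence it reads is uncertain. Of the Hk1 probes on chromosome 10, 1 read 0.62 ± 0.34 with overlapping groups. The other read -0.82, -0.64 and -0.69 in the knockout, against -2.31, -1.02 and -1.99 in wild type (1.06 ± 0.32, adjusted p 0.161), with all knockout arrays above wild type.

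Phosphoglucomutases link glucose phosphate to glycogen. The gene listed in the files as Pgm2, whose accession RefSeq now names Pgm1, read 4.45, 4.62 and 4.54 in the knockout, against 4.13, 3.87 and 3.63 in wild type. The groups did not overlap, with a log2 fold change of 0.66 ± 0.15 (adjusted p 0.108). The gene listed as Pgm1, now Pgm2, had 0.19 ± 0.24 and overlapping groups. Glucose phosphate isomerase, Gpi1, converts glucose phosphate to fructose phosphate. Its brightest probe read 6.72, 7.04 and 7.04 in the knockout, against 6.68, 6.36 and 6.41 in wild type. Knockout replicate 1 lay just above wild type replicate 1 and the other knockout arrays lay clear of all wild type arrays. Its 3 probes overlap on chromosome 7 within a few bases of each other and gave 0.45, 0.48 and 0.49 (adjusted p 0.142 to 0.171).

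Among the phosphofructokinases, which catalyse the committed step, the liver-type gene Pfkl had the largest difference. It read 1.63, 2.18 and 2.25 in the knockout, against 1.11, 0.76 and 1.07 in wild type. All knockout arrays were higher, and the log2 fold change was 1.04 ± 0.20 (2.06-fold, adjusted p 0.0862). The platelet-type gene Pfkp had 0.63 ± 0.28 and, at its other probe, 0.48 ± 0.16, with knockout arrays above wild type at both probes. The muscle-type gene Pfkm, printed in 10 spots, lay on the other side. It read 2.09, 2.03 and 2.04 in the knockout, against 2.15, 2.12 and 2.40 in wild type, and its log2 fold change was -0.17 ± 0.11 (adjusted p 0.389).

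The bifunctional PFKFB enzymes make and break down a fructose bisphosphate that activates phosphofructokinase, and PFKFB3 is the isozyme known for the highest ratio of kinase to phosphatase activity. Pfkfb3 rose in the knockout. It read -0.07, 0.31 and 0.23 in the knockout, against -0.92, -1.08 and -0.85 in wild type. The groups lay far apart and knockout replicate 1 was the nearest to wild type. The log2 fold change was 1.11 ± 0.14 (95% confidence interval 0.77 to 1.44), or 2.15-fold, with an adjusted p of 0.0453. The probe lies on the minus strand at chr2:11393453-11393512 (mm9). A second Pfkfb3 probe, placed across 1414 bases, was well above background on 1 knockout and 1 wild type array and was not tested. The call was lost under 9 of 18 alternatives, including those without knockout replicate 1, 2 or 3 (adjusted p 0.103, 0.208 and 0.193) or wild type replicate 3 (0.123). Adjusted p spanned 0.0329 to 0.208 over the alternatives and the log2 fold change 0.99 to 1.22. The other isozymes were not called: Pfkfb1 had 0.25 ± 0.12 with knockout arrays above wild type, Pfkfb2 0.20 ± 0.20 and Pfkfb4 -0.07 ± 0.14, both with overlapping groups. The second Pfkfb4 probe was not well above background on any array.

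Promoters were read because most of the fold changes were positive, though 34 were not called, and the pathway is known for the motif of the hypoxia-inducible factors. The letters ACGTG and GCGTG were searched on both strands of RefSeq promoter windows (GRCm38.p6), each of 300 bases and lying mostly upstream of an annotated start. At least 1 window of 29 of the 34 genes with an entry (85.3%) held a match, against 62.6% of the 12711 tested genes with an entry. Counted by window, 73.6% of the 53 windows of these genes held a match, against 43.8% of all 32851 windows. Those windows include genes not tested here, which held fewer matches: over all genes with an entry the share by gene was 46.7%. The palindrome CACGTG, which contains ACGTG on both strands, was found in 11.3% of the 53 windows of these genes and in 7.15% of all windows. No match was found in the windows of Gpi1, Tpi1, Pgam2, Eno2 and Dlat, and Slc2a3 had no entry. Among these, Gpi1 and Tpi1 read higher on every knockout array and Dlat lower. Every other gene with a negative fold change held a match, with 5 in the Slc16a1 window and 4 in that of Pdha1. Members with and without a match therefore lay on both sides. The windows printed in this report are all of genes that read higher, and a link between motif and direction was not tested. The Pfkfb3 windows are shown because this gene was called, with matches on either strand in capitals. Window 1 is chr2:11553880-11554179 and window 2 is chr2:11502041-11502340, both on the minus strand and written 5′ to 3′ along the gene, with 1 and 4 matches (CACGTG counted on each strand).
Pfkfb3 window 1: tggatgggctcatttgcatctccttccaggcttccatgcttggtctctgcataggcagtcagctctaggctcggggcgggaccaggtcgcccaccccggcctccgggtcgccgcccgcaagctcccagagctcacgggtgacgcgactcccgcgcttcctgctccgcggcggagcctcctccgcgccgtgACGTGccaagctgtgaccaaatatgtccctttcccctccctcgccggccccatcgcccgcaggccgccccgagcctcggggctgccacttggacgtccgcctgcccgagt
Pfkfb3 window 2: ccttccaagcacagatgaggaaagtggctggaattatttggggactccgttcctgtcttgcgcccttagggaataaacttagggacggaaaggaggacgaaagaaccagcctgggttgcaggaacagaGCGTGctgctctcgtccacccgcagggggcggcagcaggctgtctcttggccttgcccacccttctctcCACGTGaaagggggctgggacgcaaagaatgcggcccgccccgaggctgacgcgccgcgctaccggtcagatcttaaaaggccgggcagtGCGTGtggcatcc

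Aldolase splits the fructose bisphosphate into triose phosphates. Aldoc, the brain-type isozyme, had the highest log2 fold change of the 35 genes, at 1.11 ± 0.18 (2.16-fold, adjusted p 0.0652). It read 3.54, 4.03 and 3.86 in the knockout, against 2.92, 2.71 and 2.47 in wild type, and the groups did not overlap. Aldoa, the main isozyme of muscle and most tissues, read 8.12, 8.46 and 8.49 in the knockout, against 7.91, 7.91 and 7.65 in wild type. All knockout arrays were again higher (0.54 ± 0.15, adjusted p 0.140). Triose phosphate isomerase, Tpi1, keeps the triose phosphates in balance. Its brightest probe read 5.19, 5.64 and 5.55 in the knockout, against 5.12, 4.74 and 4.94 in wild type, with knockout replicate 1 close to wild type replicate 1. The log2 fold change was 0.52 ± 0.16 there and 0.69 ± 0.15 at the other probe (adjusted p 0.166 and 0.108).

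Gapdh, the triose phosphate dehydrogenase often used as an unchanging control, had 8 tested probes that ran from -0.03 to 0.51 in log2 fold change. The brightest, placed on chromosome X although the gene lies on chromosome 6, read 8.42, 8.60 and 8.63 in the knockout, against 8.61, 8.45 and 8.44 in wild type. The groups overlapped (0.05 ± 0.11), and it read -0.01 when arrays were scaled to the median of the tested probes. Those placed on chromosomes 7 and 8 read -0.03 and 0.08. The gene itself had 5 probes on chromosome 6, and of these the 2 nearest the 5′ end had the largest differences. The following 3 probes are shown because they lie in coding sequence of the same transcript and gave different fold changes. They are on the minus strand of chromosome 6 (mm9) at chr6:125113312-125113371, chr6:125113229-125113288 and chr6:125112979-125113038, given 5′ to 3′ along the gene.
Gapdh probe 1: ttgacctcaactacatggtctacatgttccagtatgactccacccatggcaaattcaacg
Gapdh probe 2: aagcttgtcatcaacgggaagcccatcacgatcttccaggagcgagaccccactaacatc
Gapdh probe 3: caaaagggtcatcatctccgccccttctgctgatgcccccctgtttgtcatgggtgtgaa
Probe 1 read 4.85, 4.96 and 4.99 in the knockout, against 4.46, 4.24 and 4.60 in wild type, with no overlap (0.51 ± 0.13, adjusted p 0.121). Probe 2 also had all knockout arrays above wild type (0.37 ± 0.11, 0.158). At probe 3, and at the next probe toward the 3′ end, the groups overlapped (0.14 ± 0.11 and 0.11 ± 0.13). The last probe, which the files place over only 19 bases, read 0.25 ± 0.12 with overlapping groups, above both of these, so the fold changes did not fall in order along the whole gene.

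Phosphoglycerate kinase, Pgk1, makes the first ATP of the pathway. It read 6.36, 6.62 and 6.60 in the knockout, against 5.93, 5.60 and 5.89 in wild type. Every knockout array was higher, with a log2 fold change of 0.72 ± 0.14 (1.65-fold, adjusted p 0.0859). The files place its probe on chromosome 3 and RefSeq has the gene on chromosome X, so here too the sequence read is uncertain. The Pgk1 window, at chrX:106186850-106187149 on the plus strand (GRCm38.p6), is shown for its 2 matches, 1 on each strand.
Pgk1 window: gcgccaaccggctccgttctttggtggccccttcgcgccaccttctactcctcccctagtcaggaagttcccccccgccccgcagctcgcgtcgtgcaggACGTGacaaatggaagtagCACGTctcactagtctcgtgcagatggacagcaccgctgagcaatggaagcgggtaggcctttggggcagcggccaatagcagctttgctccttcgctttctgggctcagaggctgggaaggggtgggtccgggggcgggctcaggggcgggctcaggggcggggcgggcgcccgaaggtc

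Phosphoglycerate mutase moves the phosphate before enolase removes water. Pgam1, the common isozyme, read 6.79, 6.83 and 6.76 in the knockout, against 6.68, 6.48 and 6.63 in wild type, all higher in the knockout by a small margin (0.20 ± 0.10, adjusted p 0.296). Pgam2, the muscle isozyme, had 0.28 ± 0.16 and overlapping groups. Eno1, the ubiquitous enolase, read 7.28, 7.59 and 7.50 in the knockout, against 7.26, 7.09 and 7.16 in wild type. Knockout replicate 1 was level with wild type replicate 1 to within 0.1 and the others lay above (0.29 ± 0.12, adjusted p 0.233). This probe is placed on chromosome 2, not on chromosome 4 with the gene. The neuronal enolase Eno2 had 0.77 ± 0.41 and the muscle enolase Eno3 -0.52 ± 0.32, both with overlapping groups and a wild type SD of 0.69 and 0.64. Pyruvate kinase of the muscle and embryonic type, Pkm, makes pyruvate and the second ATP. It read 6.07, 6.29 and 6.26 in the knockout, against 5.99, 5.64 and 5.94 in wild type, with no overlap (0.35 ± 0.14, adjusted p 0.216).

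**Figure D4:**
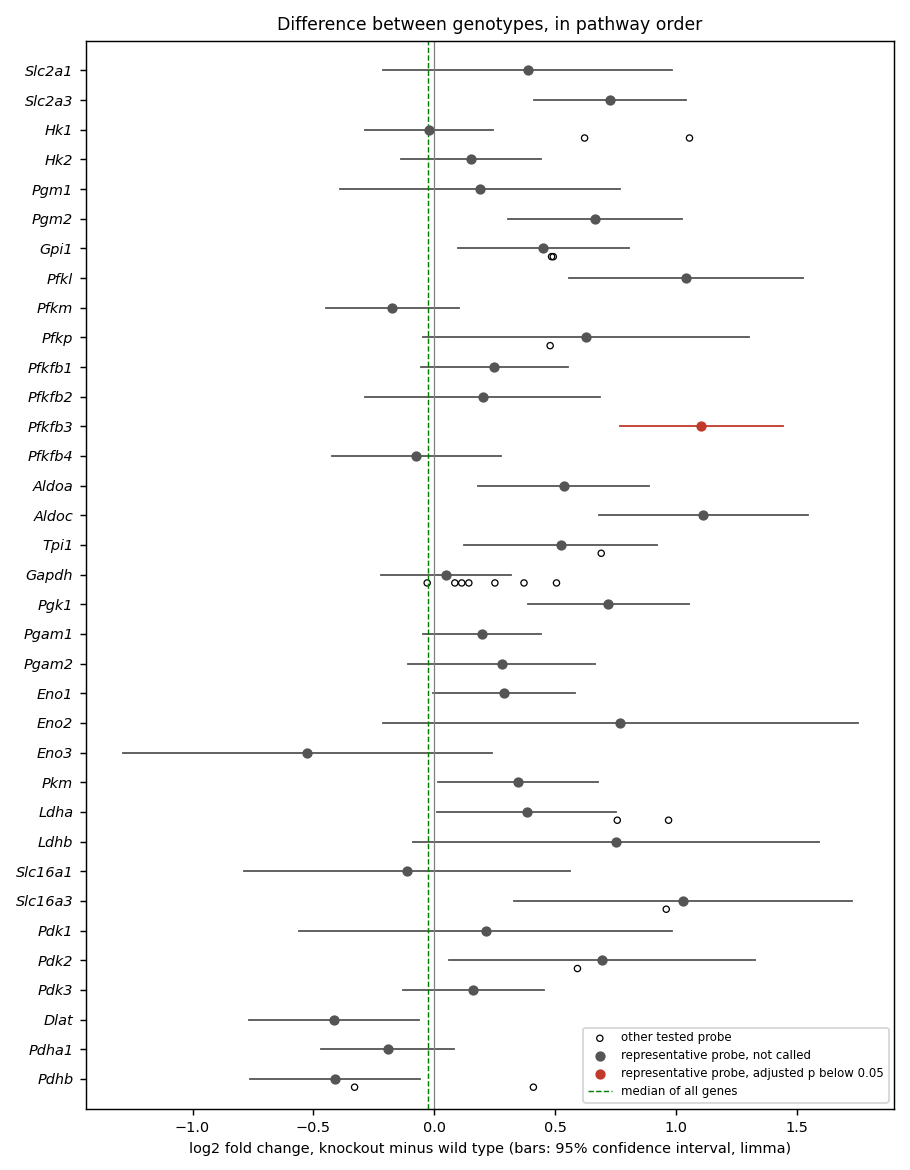
Log2 fold change, knockout minus wild type, of the representative probe of each gene (filled circles, red where the adjusted p is below 0.05) with limma's 95% confidence interval, in pathway order. Open circles are the other tested probes of a gene and the dashed green line is the median of all genes (-0.03). Pfkfb3 is the gene in red, and some of the open circles of Hk1, Gapdh, Ldha and Pdhb lie apart from their filled ones.

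The lactate branch read higher in the knockout for lactate dehydrogenase and for the exporting transporter. Ldha, the subunit that favours lactate formation, had all knockout arrays above wild type at all 3 probes. The brightest read 7.47, 7.73 and 7.57 in the knockout, against 7.30, 6.94 and 7.39 in wild type (0.38 ± 0.15, adjusted p 0.221). The other 2 probes are shown because they lie upstream in the coding sequence and gave larger differences. They are on the plus strand of chromosome 7 (mm9), probe 1 at chr7:54103010-54103069 and probe 2 at chr7:54107294-54107353. The promoter window chr7:46845554-46845853 (GRCm38.p6, plus strand) is shown because it held 7 matches to ACGTG or GCGTG, with the palindromes counted on each strand.
Ldha probe 1: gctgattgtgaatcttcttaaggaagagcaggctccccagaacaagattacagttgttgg
Ldha probe 2: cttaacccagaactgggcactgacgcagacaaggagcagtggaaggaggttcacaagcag
Ldha window 1: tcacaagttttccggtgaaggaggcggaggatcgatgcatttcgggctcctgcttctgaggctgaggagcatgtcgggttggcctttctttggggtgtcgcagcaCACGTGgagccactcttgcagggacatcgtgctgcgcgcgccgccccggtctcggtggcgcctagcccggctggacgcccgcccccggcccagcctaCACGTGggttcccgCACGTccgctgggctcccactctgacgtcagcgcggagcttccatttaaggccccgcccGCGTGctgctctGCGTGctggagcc
Probe 1 read 2.58, 2.73 and 2.66 in the knockout, against 1.73, 1.23 and 2.10 in wild type, and its log2 fold change was 0.97 ± 0.22 (adjusted p 0.110). Probe 2 gave 0.76 ± 0.22 (0.147). At all 3 probes wild type replicate 2 was the lowest array.

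Ldhb, the subunit that favours pyruvate formation, read 5.88, 6.14 and 6.28 in the knockout, against 4.98, 6.15 and 4.91 in wild type. Wild type replicate 2 stood with the knockout arrays, and the log2 fold change of 0.75 ± 0.35 was not called (adjusted p 0.260). It was 1.15 and called without that array. Slc16a3, the transporter that exports lactate from glycolytic cells, read 4.01, 4.43 and 4.28 in the knockout, against 3.63, 2.58 and 3.43 in wild type. The groups did not overlap and wild type replicate 2 lay lowest (1.03 ± 0.29, adjusted p 0.145). Its other probe, shifted by 7 bases, gave 0.96 ± 0.29. Slc16a1, the more widespread lactate and pyruvate transporter, had -0.11 ± 0.28. Its wild type replicate 1, at -3.42, lay above the other 5 arrays, which read from -4.41 to -4.09, and without it the log2 fold change was 0.21.

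At the entry of pyruvate into mitochondria the kinases and the complex that they inhibit lay on opposite sides of 0. By representative probe all 3 pyruvate dehydrogenase kinase genes were positive and all 3 genes of the complex negative, and none was called. Pdk2 read -1.72, -1.42 and -1.30 in the knockout, against -2.53, -1.61 and -2.38 in wild type, overlapping through wild type replicate 2 (0.69 ± 0.26, adjusted p 0.207). Its other probe gave 0.59 ± 0.16 with all knockout arrays higher. Pdk3 had 0.16 ± 0.12, also with all knockout arrays higher, and Pdk1 0.21 ± 0.32 with overlap. Pdk1, known as a kinase induced by hypoxia, was at 1.02 in wild type replicate 2 against 1.92 to 2.27 on the other 5 arrays, and read -0.16 without that replicate.

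Dlat, the acetyl-transferring core of the complex, read -1.29, -1.29 and -1.44 in the knockout, against -0.78, -1.20 and -0.80 in wild type. All knockout arrays were lower (-0.42 ± 0.15, adjusted p 0.190). Pdhb, the beta subunit of the decarboxylating enzyme, read 4.69, 4.53 and 4.24 in the knockout, against 4.98, 4.91 and 4.79 in wild type. These knockout arrays were lower too (-0.41 ± 0.14, adjusted p 0.191), as at an overlapping probe (-0.33 ± 0.14). The remaining Pdhb probe, on the same chromosome, read 0.41 ± 0.28 with overlapping groups, so the direction of Pdhb depended on the probe. Pdha1, the alpha subunit, had -0.19 ± 0.11 with overlap.

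Of the 9 genes with several tested probes, 6 had all probes on one side of 0 and Hk1, Gapdh and Pdhb did not. The fold changes were therefore also set out by probe position, a comparison chosen after the values were seen. It took the tested probes farthest toward the 5′ and the 3′ end of a gene, on the gene's own chromosome, placed over at least 50 bases and at least 200 bases apart, which 7 of the 35 genes had. The 5′ probe had the higher log2 fold change in 6 of them (Gapdh, Hk1, Ldha, Pdhb, Pfkp and Tpi1) and the lower in Pdk2, with a median gap of 0.39. With probes placed over fewer bases kept, the last Gapdh probe came in, the gap of Gapdh was 0.25 in place of 0.39, and the median was 0.25, with the same 6 genes higher at the 5′ probe. Over all 3898 genes with such a pair of probes, 60.4% had the higher value at the 5′ probe and the median gap was 0.07. The 5′ minus 3′ gap of those genes, centred over arrays, had a median of 0.04, 0.01 and 0.05 in the knockout, against -0.04, -0.06 and -0.01 in wild type, so every knockout array lay above every wild type array. Spot brightness moved with this. The higher value lay at the 5′ probe in 68.4% of genes where that probe was the dimmer spot and in 42.6% where it was the brighter. The 5′ probe was the dimmer one in 6 of the 7 pathway genes. Where it was dimmer by a log2 of over 2, the share was 74.3% and the median gap 0.17. Where the 3′ probe was above a log2 of 2, they were 74.1% and 0.14. The part of probe position and brightness in the fold changes of the pathway was not tested. With each gene's dimmest tested probe in place of the brightest, 29 of 35 genes were positive and the median was 0.41.

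**Figure D5:**
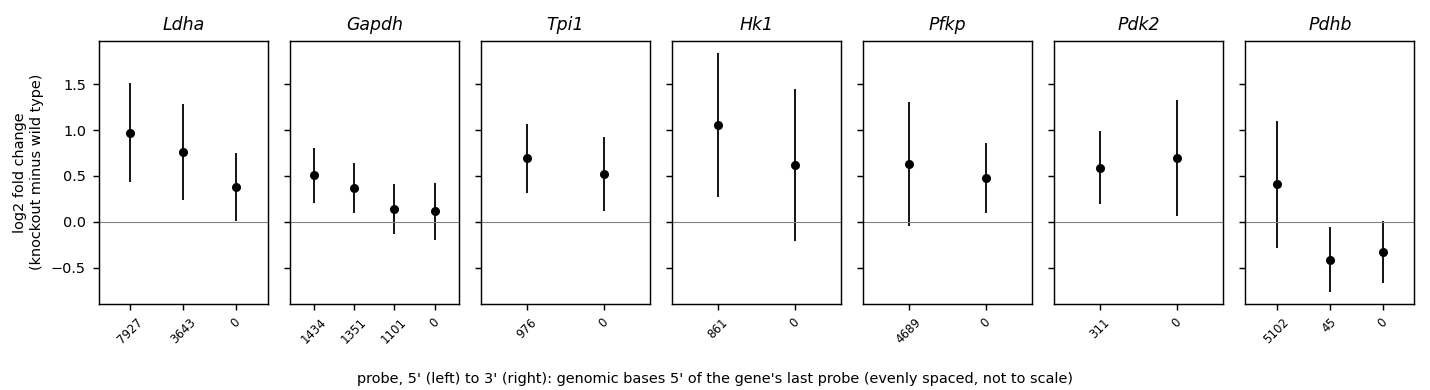
Log2 fold change, knockout minus wild type, with limma's 95% confidence interval, of the probes, placed over at least 50 bases, of the 7 genes with tested probes at least 200 bases apart, ordered 5′ to 3′ from left to right. Numbers under the points are genomic bases 5′ of the last probe, evenly spaced and not to scale, and in every panel except that of Pdk2 the leftmost probe has the highest value. The Gapdh probe placed over 19 bases (0.25) is not drawn.

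Other genes of glucose and pyruvate metabolism did not lean the same way. Both lists were chosen with earlier results of these data known, so the contrast between them is only a description. A list of 67 genes outside the 35 covered other glucose and pyruvate transporters, rarer isozymes, the rest of the pyruvate dehydrogenase complex, and the pentose phosphate, glycogen and serine branches. Of these, 61 were tested and 0 were called, with 26 positive and 35 negative and a median of -0.03. Before adjustment, p was below 0.05 for 3 genes reading higher and 4 reading lower (4.92% and 6.56%, against 9.66% and 12.1% of all genes). Bsg, the chaperone of the monocarboxylate transporters, had a log2 fold change of 0.53 ± 0.15 (0.146), with 2.42, 2.87 and 2.86 in the knockout, against 2.14, 2.21 and 2.23 in wild type. On the other side were Psph, the last enzyme of serine synthesis (-0.49 ± 0.17), H6pd, a pentose phosphate enzyme of the endoplasmic reticulum (-0.40 ± 0.14), Pck2, the mitochondrial phosphoenolpyruvate carboxykinase (-0.61 ± 0.23), and G6pc, the phosphatase that releases glucose (-0.58 ± 0.22). The pentose phosphate genes were positive in 2 of 8 cases and the glycerol phosphate and serine genes in 1 of 6.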

How the data were processed

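Total RNA of 6 samples, labelled with Cy3, was read on 1-colour Agilent mouse arrays. The deposited scanner files give a linear intensity, the processed signal, which was background-subtracted and detrended by Feature Extraction, per the file headers (version 10.7.3.1 there, 10.3.1.1 per the submitters' processing notes). The authors' deposited series table holds log2 values centred per probe (column medians -0.07 to 0.03, correlation with the centred scanner values above 0.999); it served as an alternative, and the sources used here do not give the scaling of its arrays. Probe positions are on mm9, per the file headers.

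Spots of a probe were averaged, log2 signal minus each array's 75th percentile was taken, and probes well above background on at least 3 of 6 arrays were tested with limma 3.58.1 in R 4.3.3 (data.table version 1.17.8, lmFit, eBayes, two-sided, Benjamini-Hochberg over 26647 probes). The steps were tested on simulated data. The tested probe brightest on average across the 6 arrays represents a gene. Every gene of the list is named, and values on every array are given for those called, the 12 with the smallest p and at least 1 gene per step; of the other pathway genes, the 6 with the smallest p are named, except 1 that is not reported here. Alternatives were normexp (offset 50) with quantile normalization, quantile alone, a median shift, the authors' table, other filters, trended or weighted fits, other choices of probe, a replicate block and leaving out each array. Restricting genes to probes on their own chromosome, and keeping probes placed over fewer than 50 bases in the position comparison, were added after the data were seen. Motif and probe position comparisons are descriptions. The members and lists were chosen with earlier results of these data known. The number of arrays limits the precision.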

Additional observations from a re-analysis of the deposited data

How the results depend on the processing

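Pfkfb3 was the gene called higher under quantile normalization, the median shift, the authors' table, the dimmest probe, the mean over probes and own-chromosome probes. With normexp, without a filter, with detection on all 6 arrays and with a trended and robust prior 0 members were called higher, and 0 probes of all those tested were called higher or lower. Array weights called 5 members (Pfkfb3, Aldoc, Slc2a3, Pgk1 and Pfkl) and 434 probes higher and 406 lower. Probes called higher and lower were 33 and 91 as reported, 50 and 131 under quantile normalization and 54 and 177 under the median shift. Leaving out each array in turn gave 0 to 6 members higher, 0 to 2 lower, 0 to 3 other pathway genes higher, and 0 to 1409 probes higher and 0 to 1148 lower. The members' median spanned 0.23 to 0.38 in those fits and was 0.41 with the dimmest probe. The sign of Hk1 turned (0.070 with normexp, 0.050 with quantile normalization or array weights, 1.06 at the dimmest probe, 0.55 as the mean over probes, 0.62 on its own chromosome, and -0.068 to 0.035 with 1 array left out, positive without knockout replicate 3 or wild type replicate 2). It also turned for Gapdh (-0.0052, median shift), Pdhb (0.41, dimmest probe), Pdk1 (-0.16 to 0.46 with 1 array left out, negative without wild type replicate 2), Pgm1 (-0.045 to 0.42, negative without wild type replicate 3) and Slc16a1 (-0.28 to 0.21, positive without wild type replicate 1); beyond choosing another probe or leaving out an array, the cause was not tested. With the replicate number as a block 0 members and 0 probes were called. Same-numbered arrays had correlations of their deviations of 0.16, 0.23 and -0.14, against -0.32 to 0.21 for differently numbered ones. Not every array correlated best with its own number. With 3 arrays per group these values cannot decide whether the numbers pair the samples. Other filters change how many probes are tested (39335 without a filter and 24225 with detection on all 6 arrays), and no result was reported for probes below background.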
